A study of Mus musculus with 12 samples.

Results

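The net change over an 8-day differentiation was measured in mouse embryonic stem (ES) cells that carried the unrecombined, floxed allele of Smchd1 (Smchd1 fl/fl), the control genotype of the series. The comparison set 2 libraries taken at day 8 against 2 taken at day 1, which are 4 of the 12 RNA-seq libraries, and was described across genes. The other libraries are fl/fl cells at day 5 and Smchd1 del/del cells of the same lines at the 3 days. Each group had 1 library from line 1 and 1 from line 3, and pairs of values below give line 1 and then line 3. The lines were of C57BL/6 background, labelled male, and each was derived from a single E3.5 blastocyst in 2i medium with LIF. After weaning into serum with LIF, the cells were moved to medium with Fgf2 and without LIF, received an inhibitor of Gsk3 after 2 days and Gdf11 after a further 4 days. Cells taken before differentiation carry the label day 1, and the protocol counts that time as day 0. The del/del cells came from a portion of each line transduced with a retrovirus encoding Cre together with puromycin resistance, followed by drug selection, whereas the fl/fl cells were neither transduced nor selected. With 2 lines of single blastocysts per group, p-values measure the spread between these samples. In bulk RNA, a change in the number of cells of a type and a change in RNA per cell cannot be told apart.

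Naive ES cells are held in self-renewal by a network of transcription factors around Oct4 (Pou5f1), Sox2 and Nanog, and pass through a primed, epiblast-like state when LIF is withdrawn. Neuromesodermal progenitors (NMPs) of the caudal epiblast feed both the spinal cord and the paraxial mesoderm, carry Brachyury (T) together with Sox2, and are maintained by Wnt and FGF signals. Inhibition of Gsk3 stabilises beta-catenin, which acts through TCF and LEF factors on targets such as Axin2, Sp5 and T. These signals induce Cdx factors, which open the Hox clusters, and Gdf11 is known for moving the embryo's axis from trunk to tail Hox genes.

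The promoters of 3 such targets, all 3 of which were higher at day 8, are shown because the culture was driven by an activator of this pathway. Each runs from 250 bases before the RefSeq start to 50 bases after it (GRCm38.p6). Capitals mark the TCF/LEF core CTTTGA on either strand.
T, chr17:8434173-8434472, plus strand: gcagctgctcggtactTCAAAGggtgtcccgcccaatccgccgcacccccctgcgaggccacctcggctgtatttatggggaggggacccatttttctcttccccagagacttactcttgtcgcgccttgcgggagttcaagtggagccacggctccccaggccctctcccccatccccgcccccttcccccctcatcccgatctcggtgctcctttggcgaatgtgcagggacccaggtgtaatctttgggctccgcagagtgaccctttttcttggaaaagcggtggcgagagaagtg
Sp5, chr2:70474673-70474972, plus strand: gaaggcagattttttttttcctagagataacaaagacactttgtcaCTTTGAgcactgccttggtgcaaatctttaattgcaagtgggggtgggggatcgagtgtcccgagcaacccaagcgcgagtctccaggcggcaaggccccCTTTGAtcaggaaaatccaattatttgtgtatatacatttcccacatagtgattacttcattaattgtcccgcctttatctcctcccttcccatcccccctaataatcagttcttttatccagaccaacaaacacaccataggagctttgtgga
Axin2, chr11:108920099-108920398, plus strand: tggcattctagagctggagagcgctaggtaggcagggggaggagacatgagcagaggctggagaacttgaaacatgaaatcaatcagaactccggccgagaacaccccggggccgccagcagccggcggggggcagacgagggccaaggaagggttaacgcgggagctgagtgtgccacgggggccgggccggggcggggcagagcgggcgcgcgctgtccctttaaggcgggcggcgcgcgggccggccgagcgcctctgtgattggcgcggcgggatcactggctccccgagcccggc
The T window held 1 match, the Sp5 window 2 and the Axin2 window 0. The same core was present in 5257 of 32851 RefSeq promoters of this length (16%), so a match is a description of the window and nothing more.

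The day 8 libraries held 5.97 and 1.51 M reads in genes, against 6.42 and 7.14 M at day 1. The line 3 library of day 8, from a column that its name marks as merged, was the shallowest of the series. Levels are given as aligned reads per M (RPM), the deposited RPM after each library was shifted to a common median gene. Targeted Smchd1 checked the labels: it had 24.4 and 16.1 RPM at day 8, against 37.7 and 41.3 at day 1 in fl/fl cells, and 3.81 and 3.55 at day 8, against 5.03 and 6.00 at day 1 in del/del cells. Within fl/fl cells it was lower at day 8 (log2 change -0.99 ± 0.24, limma adjusted p = 0.00455). Although all lines are labelled male, 6 Y-linked genes had few reads in line 1, with 2 at day 8, against 48 at day 1. In line 3 they had 264 and 2038. Per M gene reads these were 0.335 and 7.48 in line 1, and 175 and 286 in line 3. Over all libraries of both genotypes the range was 0.335 to 7.48 in line 1 and 175 to 346 in line 3. The lines thus differed at every day and in both genotypes, and the reason was not tested.

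Of 14063 genes tested, 4008 (28.5%) were higher and 3775 (26.8%) were lower at day 8 than at day 1 in fl/fl cells (limma, Benjamini-Hochberg adjusted p under 0.05). Among the 7783 genes called, 2976 rose and 2339 fell by more than 2-fold, and 486 rose and 156 fell by more than 16-fold. In 7753 of the called genes both lines moved in the same direction, as in 11443 of all tested genes (81.4%). The calls were made from these same libraries, so the agreement among called genes was largely fixed in advance. On the deposited scale, without the shift of the libraries, the median gene moved by -0.95 on the log2 scale and the split turned to 1364 higher and 6055 lower. All changes here are therefore relative to the median gene. A gene was tested if it exceeded 1 RPM in any 2 of the 12 libraries. A gene with almost no reads at day 1 thus entered through the libraries in which it was present. Counts of risers within a list have to be read with that in mind, and each list count beside the 28.5% and 26.8% of all tested genes. A library with no read of a gene was entered by the authors as 0.9 reads, which stands higher in the shallow library. For 30 genes called higher, the day 8 library of line 3 had no read.

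**Figure D1:**
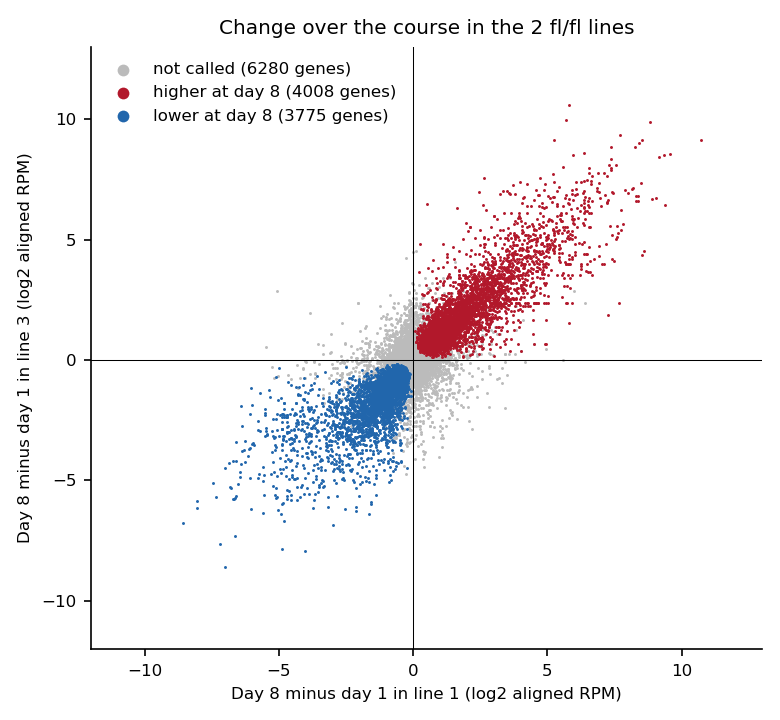
Change in log2 aligned RPM, day 8 minus day 1, in line 1 (x axis) and line 3 (y axis) for the 14063 tested genes, with 1 library per line and day. Genes called higher (4008) lie in the upper right and genes called lower (3775) in the lower left, while 6280 genes that did not pass the test surround the origin.

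The pluripotency network was lower at day 8. Of 25 naive pluripotency genes tested, 18 fell and 3 rose (median log2 change -1.62, against -0.02 for all tested genes). Among 20 genes of the core and primed state, 19 fell and 0 rose (median -2.75). Fgf4, the autocrine ligand that drives ES cells towards commitment, was at 0.302 and 0.579 RPM at day 8, against 31.0 and 31.3 at day 1, and its log2 change was -6.22 ± 0.40 (limma adjusted p = 1.31e-06). The de novo DNA methyltransferase Dnmt3b stood at 12.7 and 7.81 RPM at day 8, against 166 and 162 at day 1 (log2 change -4.04 ± 0.21, limma adjusted p = 5.38e-07). In both genes the day 8 libraries lay below the day 1 libraries, as they did in 5506 of all 14063 tested genes.

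The 3 factors at the centre of the network were lower but still transcribed. Pou5f1 measured 26.4 and 35.2 RPM at day 8, against 66.4 and 61.6 at day 1 (log2 change -1.07 ± 0.17, limma adjusted p = 0.000339). Sox2, which is also an NMP and neural gene, measured 12.1 and 15.9 RPM at day 8, against 51.9 and 44.6 (log2 change -1.79 ± 0.22, limma adjusted p = 6.44e-05). Nanog measured 4.09 and 5.93 RPM at day 8, against 29.9 and 23.9 (log2 change -2.44 ± 0.39, limma adjusted p = 0.000351). All 3 kept reads at day 8 in both lines. In each, both day 8 libraries were below both day 1 libraries, as in 5506 of all 14063 tested genes. Dppa3, a maternal factor of naive cells, fell by 3.88 on the log2 scale to 0.771 and 1.45 RPM at day 8, against 16.6 and 14.7 at day 1. Klf2, Esrrb, Nr0b1, Dppa2, Dppa4, Nr5a2, Tdh, Gbx2, Lefty1, Lefty2 and Zfp57 also fell. The call of Nr5a2 was lost without any 1 of the 4 libraries (limma adjusted p from 0.0654 to 0.10), and that of Lefty2 without the line 3 library of day 8 (-1.10, 0.235) and without the line 1 or line 3 library of day 1 (0.112 and 0.0905). By contrast, Zfp42 (-1.14 ± 0.53, adjusted p = 0.092), Tfcp2l1 (-0.49 ± 0.39, adjusted p = 0.304), Dppa5a and Tet2 did not pass limma's test.

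Tbx3, Klf4 and Klf5 ran against the list. These transcription factors support naive cells but are also used by mesoderm, endoderm and trophoblast. Tbx3 had 12.5 and 14.3 RPM at day 8, against 2.05 and 1.60 at day 1 (log2 change 2.88 ± 0.32, limma adjusted p = 3.69e-05). Klf4 had 11.7 and 6.08 RPM at day 8, against 3.20 and 3.43 (log2 change 1.35 ± 0.36, limma adjusted p = 0.00823, and 0.0633 without the line 1 library of day 8), and Klf5 had 12.4 and 17.1, against 5.51 and 7.07 (log2 change 1.22 ± 0.24, limma adjusted p = 0.00144). In each gene both day 8 libraries were above both day 1 libraries, as in 5302 of all 14063 tested genes.

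Among the genes of the primed state with the smallest p, Sall4, a zinc-finger partner of Oct4, was at 13.3 and 11.3 RPM at day 8, against 61.8 and 58.4 at day 1 (log2 change -2.29 ± 0.13, limma adjusted p = 7.98e-07). The ubiquitin ligase Trim71 (-2.40 ± 0.14) and the ETS factor Etv5 (-2.22 ± 0.14) fell by similar amounts on the log2 scale. Summed over the 10 ES markers, of which 2 rose and 5 fell, the level was 112 and 132 RPM at day 8, against 257 and 233 RPM at day 1. None of the 10 was at 0 at day 8. Germ-line genes, many of which are transcribed in ES cells, fell in 17 of 22 and rose in 1 (median -1.58). Of 9 genes of the 2-cell-like state tested, 7 fell and 0 rose. Zscan4d, a member of a multicopy family whose reads may be shared between copies, had 0.637 and 0 RPM at day 8, against 4.26 and 3.15 at day 1.

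**Figure D2:**
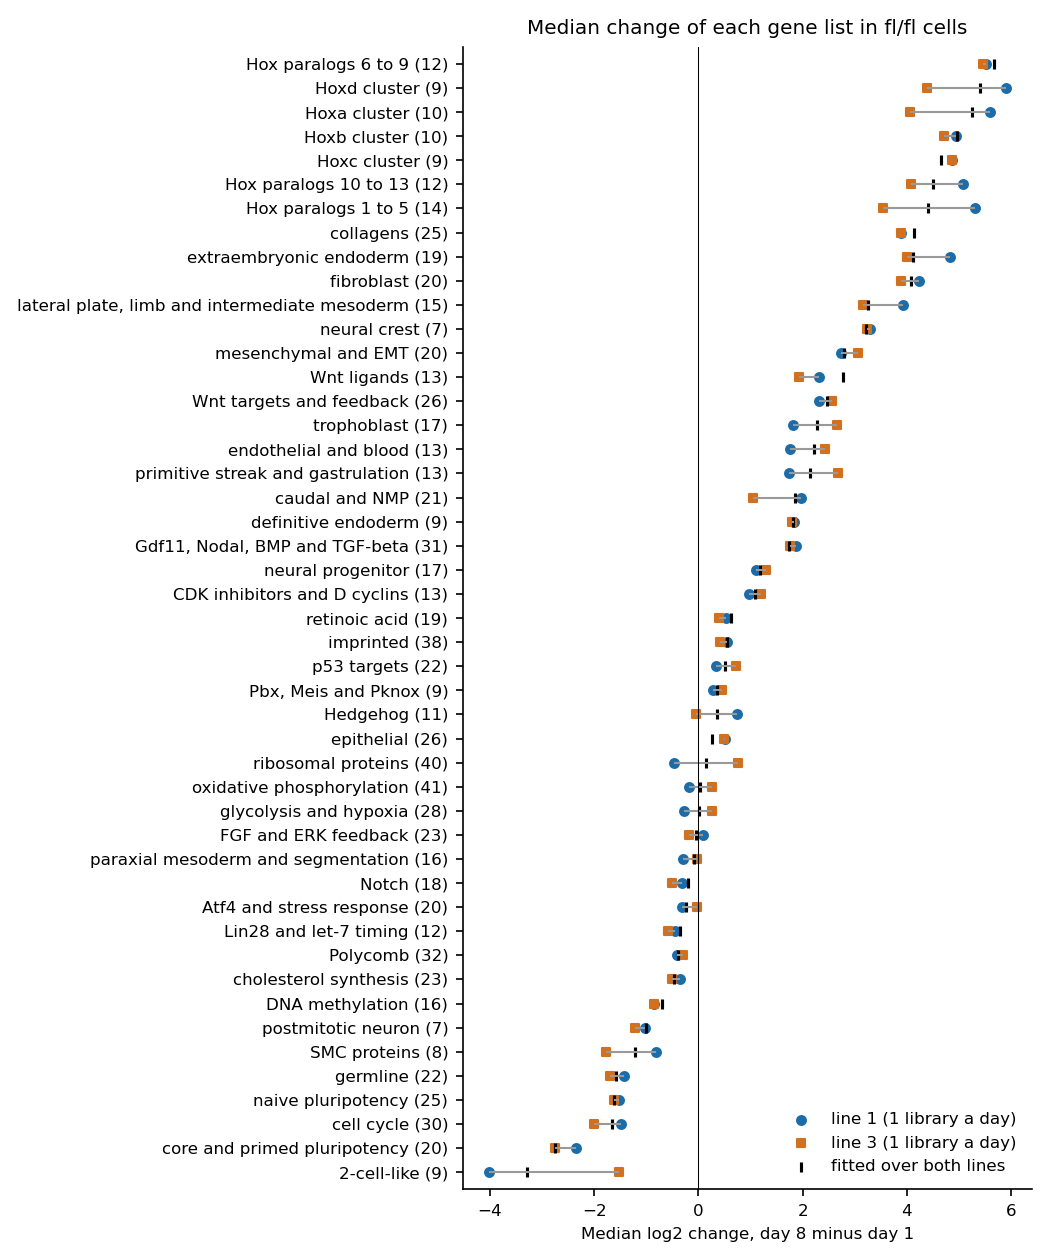
Median log2 change, day 8 minus day 1 in fl/fl cells, of 47 gene lists, with the number of tested genes in brackets. Circles are line 1 and squares line 3 (1 library a day each), and ticks are the fit over both lines. Hox, collagen and extraembryonic endoderm lists lie at the right and pluripotency, cell cycle and 2-cell-like lists at the left.

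Caudal and NMP genes were mostly higher at day 8, but at levels below those of day 5. Of 21 tested members, 12 rose and 3 fell (median 1.86). Brachyury (T) measured 0.124 and 0.0552 RPM at day 1, 29.6 and 18.8 RPM at day 5 and 4.46 and 5.21 RPM at day 8, and its log2 change from day 1 to day 8 was 5.86 ± 0.43 (limma adjusted p = 2.69e-06). The same course, with a peak at day 5 in both lines, was seen in the 2 caudal homeobox genes with the smallest p. Cdx1 measured 0.156 and 0.249 RPM at day 1, 22.2 and 16.9 RPM at day 5 and 9.93 and 12.6 RPM at day 8 (log2 change 5.83 ± 0.32, limma adjusted p = 5.97e-07 for day 8 against day 1). Cdx2 measured 0.591 and 0.635 RPM at day 1, 23.1 and 18.8 RPM at day 5 and 11.3 and 11.1 RPM at day 8 (log2 change 4.19 ± 0.28, limma adjusted p = 1.47e-06). The lines lay close together at each day, and day 8 stood well above day 1.

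Other members had the same order of days. Nkx1-2, a marker of the caudal lateral epiblast, measured 0.404 and 0.331 RPM at day 1, 5.69 and 4.95 RPM at day 5 and 2.99 and 1.74 RPM at day 8, and Evx1, a homeobox gene of the streak, 0.404 and 0.249 RPM at day 1, 14.5 and 11 RPM at day 5 and 3.19 and 1.59 RPM at day 8. Greb1, a cofactor first known from oestrogen response, held 8.55 and 10.8 RPM at day 8, against 0.404 and 0.580 at day 1 (log2 change 4.31 ± 0.37, limma adjusted p = 6.56e-06). Gdf11 itself was transcribed at 6.61 and 4.63 RPM at day 8, against 1.03 and 1.30 at day 1 (log2 change 2.26 ± 0.30, limma adjusted p = 0.000107). Wnt5a, Fst, Grsf1 and Tbx6 were also called higher. Tbx6 rests on 4 and 2 reads at day 8 and lost its call without the line 3 library of day 8 (limma adjusted p = 0.124) and without the line 1 or line 3 library of day 1 (0.080 and 0.0955). The call of Fst was lost without the line 1 library of day 8 (0.187), without the line 1 or line 3 library of day 1 (0.157 and 0.10) and with the replicate block (0.0515).

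Fgf8, Fgf17, Wnt3a and Wnt8a, ligands of the embryonic NMP niche, were not higher at day 8 than at day 1, whereas Wnt5a, named above, was. Fgf8 measured 0.0622 and 0.0829 RPM at day 1, 2.50 and 1.74 RPM at day 5 and 0.0335 and 0 RPM at day 8 and did not pass the test between day 8 and day 1 (adjusted p = 0.915). Wnt3a had no read at day 8 and 2 reads at day 1, and was not tested. Fgf17 had 3 reads at day 8, against 59 at day 1, which is a ratio of reads of 10.6 (95% exact interval 3.44 to 52.7) in favour of day 1. Wnt8a (-3.25 ± 0.43) and the zinc-finger gene Sall3 (-2.67 ± 0.80) also fell. The call of Sall3 was lost without the line 3 library of day 8 (-1.08, limma adjusted p = 0.0911), without that of day 1 (0.0921) and with voom (0.0998). Cdx4, at 0.436 and 0.856 RPM at day 1, 7.19 and 5.02 RPM at day 5 and 1.01 and 0.579 RPM at day 8, did not pass (adjusted p = 0.662). Hes3 was not tested, with 3 and 0 reads at day 8, against 13 and 8 at day 1. The 11 NMP markers include Sox2, and of the 10 tested 6 rose and 2 fell. Summed over the 11, the level was 55.1 and 48.3 RPM at day 1, 165 and 123 RPM at day 5 and 55.9 and 53.5 RPM at day 8.

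**Figure D3:**
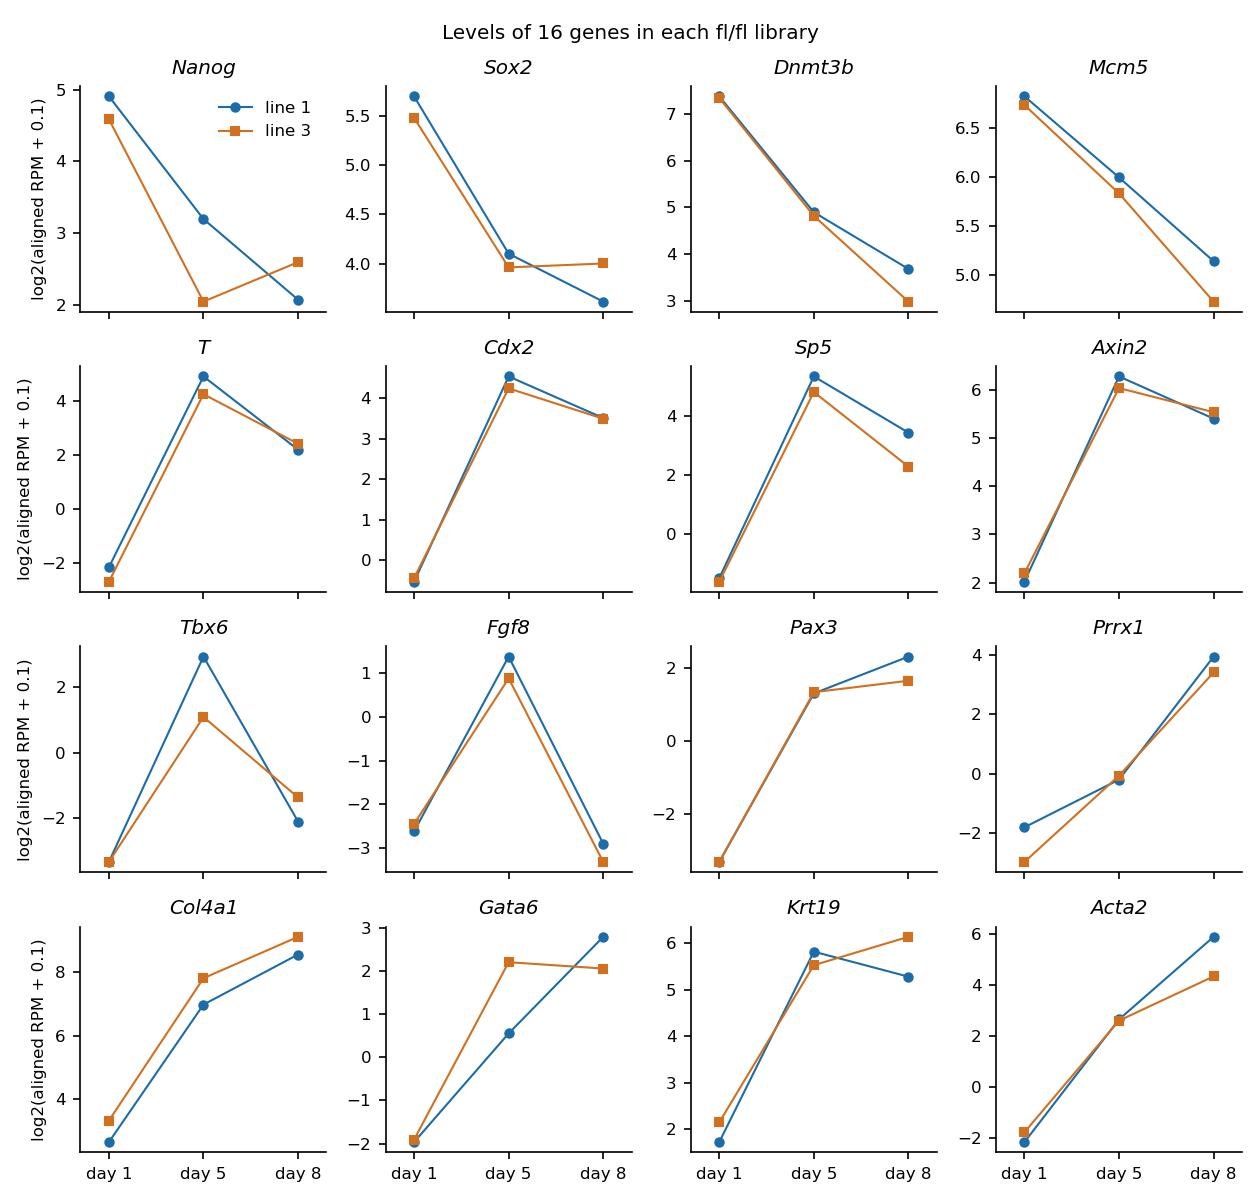
Level of 16 genes in each fl/fl library at day 1, day 5 and day 8, as log2 of aligned RPM plus 0.1, with 1 line per cell line and a separate y axis for each gene. Nanog, Sox2, Dnmt3b and Mcm5 are lower at day 8 than at day 1, and T, Cdx2, Sp5 and Axin2 are highest at day 5. Tbx6 and Fgf8 are also highest at day 5, and at day 8 Tbx6 is above and Fgf8 below the day 1 level. Prrx1, Col4a1 and Acta2 are highest at day 8 in both lines.

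Readouts of Wnt signalling were higher at day 8. Of 26 targets and feedback genes, 17 rose and 3 fell (median 2.46). Axin2, the scaffold that feeds back on beta-catenin and whose promoter window held no core match, measured 3.95 and 4.47 RPM at day 1, 77.1 and 65.3 RPM at day 5 and 42.1 and 46.1 RPM at day 8 (log2 change 3.39 ± 0.15, limma adjusted p = 3.59e-07 for day 8 against day 1). Notum, a secreted Wnt deacylase, had 32.8 and 22.1 RPM at day 8, against 3.55 and 2.49 at day 1 (log2 change 3.18 ± 0.22, limma adjusted p = 2.07e-06). Sp5, with 2 core matches, measured 0.249 and 0.221 RPM at day 1, 40.8 and 28.2 RPM at day 5 and 10.8 and 4.77 RPM at day 8 (log2 change 4.93 ± 0.49, limma adjusted p = 1.64e-05). Its level in line 3 at day 8 rests on 33 reads. Myc (-1.12 ± 0.19) and Lef1 (-0.73 ± 0.27), which are Wnt targets in other settings and were transcribed in day 1 ES cells, fell. The call of Lef1 was lost without the line 3 library of day 8 (limma adjusted p = 0.331), without the line 1 or line 3 library of day 1 (0.0837 and 0.180) and with the replicate block (0.0558).

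Of 13 Wnt ligands tested, 9 rose and 1, Wnt8a, fell (median 2.77). The canonical ligand Wnt6 measured 0.498 and 0.387 RPM at day 1, 38.1 and 31.3 RPM at day 5 and 6.88 and 6.65 RPM at day 8, with its highest level at day 5. Wnt7b had 20.6 and 30.4 RPM at day 8, against 0.747 and 1.05 at day 1 (log2 change 4.82 ± 0.49, limma adjusted p = 1.84e-05). Wnt11, which acts in cell movement, had 11.5 and 9.26 RPM at day 8, against 0.467 and 0.304 at day 1 (log2 change 4.78 ± 0.59, limma adjusted p = 7.00e-05), and at day 5 it was still at 1.09 and 1.41. Wnt9a rose by a similar amount (4.10 ± 0.44 on the log2 scale).

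Hox lists had the highest medians among the 47 lists in this fit. Of 39 Hox genes measured, 38 were tested, 36 were called higher and 0 lower (median log2 change 4.95). At day 1 the 39 genes held 113 and 106 reads in all, and 7 had no read. Members thus entered the test mostly through libraries in which they were present, so the direction of these counts was largely fixed in advance. In 34 of the 38 both day 8 libraries exceeded both day 1 libraries when a library without reads was taken as 0. Among all 14063 tested genes this held for 5302. With all libraries thinned to equal depth, 31 Hox genes were called higher, against 3545 of all 14063 tested genes. Hoxb1 (adjusted p = 0.0812) and Hoxd13 (adjusted p = 0.159) did not pass limma's test, and Hoxa4, with 12 and 11 reads at day 8, against 0 and 0 at day 1, did not reach the level for testing. Of those called, Hoxa6, Hoxc5 and Hoxc12 had no read in the day 8 library of line 3. The call of Hoxa6 was lost without the line 1 library of day 8 (limma adjusted p = 0.125) and without the line 1 or line 3 library of day 1 (0.0747 and 0.089), that of Hoxc12 without any 1 of the 4 libraries (0.0683 to 0.117), and that of Hoxc5 with voom (0.0652). Summed over 39 genes, the level was 3.52 and 2.93 RPM at day 1, 114 and 86.1 RPM at day 5 and 115 and 71.8 RPM at day 8.

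The balance within the clusters moved between day 5 and day 8. Paralogs 1 to 5, which pattern the hindbrain and neck, summed to 0.809 and 0.912 RPM at day 1, 37.7 and 31.0 RPM at day 5 and 28.9 and 16.2 RPM at day 8. The trunk paralogs 6 to 9 summed to 1.18 and 0.608 RPM at day 1, 64.3 and 46.3 RPM at day 5 and 56.2 and 35.9 RPM at day 8. Paralogs 10 to 13, which pattern the lumbar, sacral and tail levels, summed to 1.52 and 1.41 RPM at day 1, 12.5 and 8.81 RPM at day 5 and 30.0 and 19.7 RPM at day 8. In both lines the first 2 groups were thus lower at day 8 than at day 5 and the most posterior group higher. With the day 8 to day 5 step outside the comparison, this order was not tested.

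**Figure D4:**
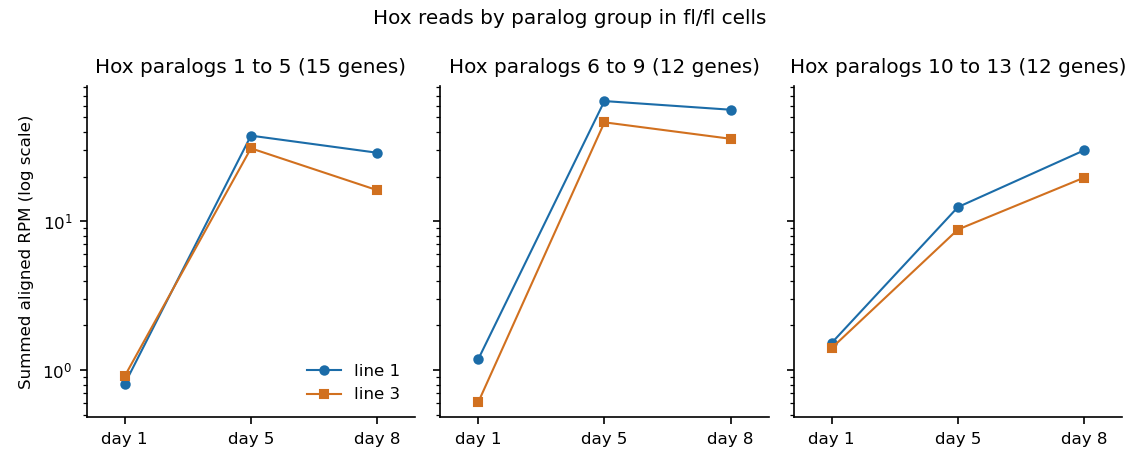
Summed level of Hox genes by paralog group in each fl/fl library, in aligned RPM on a log scale. Paralogs 1 to 5 and 6 to 9 are highest at day 5, and paralogs 10 to 13 are highest at day 8, at 30.0 RPM in line 1 and 19.7 RPM in line 3.

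Hoxb4 had 91 and 27 reads at day 8, against 1 and 0 at day 1 (a ratio of reads of 219.6, 95% exact interval 38.7 to 8745, limma adjusted p = 3.40e-06). The trunk gene Hoxb6 had 105 and 18 reads at day 8 and none at day 1 (at least 76.3-fold higher, limma adjusted p = 5.62e-06), and it measured 11.5 and 6.24 RPM at day 5, against 3.52 and 2.60 at day 8. Hoxb9 measured 0.342 and 0.166 RPM at day 1, 6.46 and 5.58 RPM at day 5 and 14.9 and 6.94 RPM at day 8 (log2 change 5.42 ± 0.52, limma adjusted p = 1.43e-05 for day 8 against day 1). Hoxa11 and Hoxa10, which act in the lumbosacral axis and the limb, were highest at day 8: Hoxa11 measured 0.0311 and 0.0276 RPM at day 1, 1.14 and 1.19 RPM at day 5 and 3.59 and 3.91 RPM at day 8 (a ratio of reads of 125, 95% exact interval 33.8 to 1040.0, limma adjusted p = 1.80e-06). Hoxa10 measured 0.0933 and 0.0276 RPM at day 1, 1.36 and 0.960 RPM at day 5 and 4.02 and 4.05 RPM at day 8 (log2 change 6.31 ± 0.75, limma adjusted p = 5.22e-05). Among the last paralogs, Hoxc13 had 2.28 and 2.03 RPM at day 8, against 0.280 and 0.387 at day 1 (log2 change 2.71 ± 0.41, limma adjusted p = 0.000261). In Hoxb9, Hoxa10, Hoxa11 and Hoxc13 the libraries of the 2 days did not overlap, and the 2 lines differed most in Hoxb9.

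Of the TALE cofactors that bind DNA with Hox proteins, 4 of 9 rose and 1 fell, with a median of 0.36 that turned negative on the deposited scale. Meis2 had 3.96 and 4.20 RPM at day 8, against 0.436 and 0.552 at day 1 (log2 change 3.05 ± 0.27, limma adjusted p = 9.19e-06). Meis1, Meis3 and Pbx2 also rose (Pbx2 stood at -0.36 on the deposited scale). The call of Meis1 was lost without the line 3 library of day 8 (limma adjusted p = 0.058) or the line 1 library of day 1 (0.0911), and that of Pbx2 without the line 3 library of day 1 (0.0716).

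Genes of the paraxial mesoderm were not raised as a group at day 8. Of 28 listed genes 16 were tested, and of these 4 rose (25%) and 6 fell (37.5%), against 28.5% and 26.8% of all tested genes. Their median was -0.08, with a sign that depended on the setting. The T-box gene Tbx6, which commits progenitors to mesoderm, measured 0 and 0 RPM at day 1, 7.46 and 2.02 RPM at day 5 and 0.134 and 0.289 RPM at day 8. Msgn1, a direct target of Tbx6 and Wnt signals, measured 0 and 0.0276 RPM at day 1, 4.87 and 0.985 RPM at day 5 and 0.0335 and 0 RPM at day 8, and the segmentation clock gene Hes7 0.124 and 0.166 RPM at day 1, 3.23 and 1.69 RPM at day 5 and 0.369 and 0 RPM at day 8. All 3 were highest at day 5, most so in line 1, and held 4 and 2, 1 and 0, and 11 and 0 reads at day 8. The Notch ligands Dll1 (0.939 and 0.289 RPM at day 8, against 13.8 and 13.7 at day 1, log2 change -4.72 ± 0.71, limma adjusted p = 0.000248) and Dll3 (-3.41 ± 0.79) fell, as did Lfng, Tcf15 and Ripply1. The call of Lfng was lost without the line 3 library of day 8 (-1.26, limma adjusted p = 0.0809) or of day 1 (0.0671). No read of Ripply2 was seen at either day. Of 10 presomitic markers 8 were tested, and of these 1 rose and 3 fell. Summed over the 10, the level was 24.7 and 25.4 RPM at day 1, 53.9 and 21.4 RPM at day 5 and 10.4 and 4.77 RPM at day 8.

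The 4 members that rose were Pax3, Foxc1, Dusp4 and Tbx6. Pax3, which is used in the dorsal neural tube, neural crest and somites, had 145 and 21 reads at day 8 and none at day 1 (at least 103-fold higher, limma adjusted p = 5.96e-06). Foxc1, a forkhead factor of paraxial and intermediate mesoderm, had 50 and 7 reads at day 8, against 0 and 2 at day 1 (a ratio of reads of 53, 95% exact interval 14.0 to 448, limma adjusted p = 0.000381).

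Neural genes moved in both directions. Of 17 progenitor genes tested, 8 rose (47.1%) and 6 fell (35.3%), against 28.5% and 26.8% of all tested genes (median 1.19). Nkx6-1, a factor of the ventral spinal cord, measured 0 and 0.0276 RPM at day 1, 6.05 and 5.23 RPM at day 5 and 3.59 and 2.31 RPM at day 8 (a ratio of reads of 229, 95% exact interval 40.3 to 9113, limma adjusted p = 2.54e-06 for day 8 against day 1). Irx3 (8.89 and 11.3 RPM at day 8, against 1.93 and 1.60 at day 1) and the BMP-responsive Msx2 (7.51 and 6.65, against 0.653 and 0.387) rose, by 2.51 ± 0.21 and 3.81 ± 0.32 on the log2 scale. Sox3, a partner of Sox2 in neural plate, fell to 10 and 0 reads at day 8, against 111 and 151 at day 1 (log2 change -4.18 ± 0.48, limma adjusted p = 4.36e-05). No read of Sox1 or Hes5 was present at day 8. Of 9 neural markers 8 were tested, and of these 3 rose and 5 fell. The 9 summed to 22.5 and 22.1 RPM at day 8, against 32.8 and 34.5 RPM at day 1.

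Of 7 genes of postmitotic neurons tested, 2 rose (28.6%) and 4 fell (57.1%), against 28.5% and 26.8% of all tested genes. The share that rose lay near that of all tested genes. The neurofilament genes Nefm (144 and 309.7 RPM at day 8, against 19.07 and 19.97 at day 1, log2 change 3.44 ± 0.42, limma adjusted p = 6.10e-05) and Nefl (102 and 242, against 16.1 and 16.5) rose, while the neuronal tubulin Tubb3 (-2.22 ± 0.30) and Stmn2 (-0.996 ± 0.15) fell. Among 7 neural crest genes, 5 rose (71.4%) and 1 fell (14.3%). Ets1 had 15.3 and 15.0 RPM at day 8, against 0.404 and 0.414 at day 1 (log2 change 5.21 ± 0.25, limma adjusted p = 4.18e-07). Snai2 (3.33 ± 0.52) and Sox9 (3.21 ± 0.59) rose at lower levels, and Foxd3, which is also an ES cell factor, fell (-4.75 ± 1.03).

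Ligands, receptors and targets of the TGF-beta superfamily changed in both directions. Of 31 tested, 18 rose (58.1%) and 7 fell (22.6%), against 28.5% and 26.8% of all tested genes (median 1.74). Bmp2 had 679 and 108 reads at day 8, against 2 and 1 at day 1 (a ratio of reads of 488, 95% exact interval 166 to 2372, limma adjusted p = 4.67e-07), and measured 0.0622 and 0.0276 RPM at day 1, 7.51 and 8.43 RPM at day 5 and 22.8 and 15.6 RPM at day 8. Pmepa1, a feedback inhibitor of TGF-beta, had 24.1 and 22.4 RPM at day 8, against 0.716 and 0.884 at day 1 (log2 change 4.87 ± 0.26, limma adjusted p = 5.97e-07). Nodal (1.01 and 1.88 RPM at day 8, against 22.7 and 20.2 at day 1) and Gdf3 (1.27 and 2.31, against 20.3 and 19.6), the ligands of the ES cell state, fell by 3.96 and 3.54 on the log2 scale.

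Changes in the FGF, Hedgehog, Notch and retinoic acid lists were mixed. Of 23 FGF and ERK feedback genes 6 rose and 9 fell, of 11 Hedgehog genes 3 rose and 3 fell, of 18 Notch genes 1 rose and 8 fell, and of 19 retinoic acid genes 7 rose and 6 fell. Among all tested genes 28.5% were higher and 26.8% lower, and the shares of the Hedgehog list (27.3% each way) lay near these. In the FGF list Spry4 (-1.26 ± 0.16) and Etv5 fell with Fgf4, and Dusp4 (1.39 ± 0.16) and Fosl1 (3.98 ± 0.67) rose. Gli1, the transcriptional readout of Hedgehog signalling, had 0.268 and 0.289 RPM at day 8, against 8.12 and 7.49 at day 1 (log2 change -4.81 ± 0.47, limma adjusted p = 1.54e-05), and its receptor Ptch1 had 3.96 and 4.05, against 14.7 and 17.6 (-2.01 ± 0.21). Indian hedgehog (Ihh) had 240 and 26 reads at day 8, against 0 and 1 at day 1 (a ratio of reads of 495, 95% exact interval 88.1 to 19623, limma adjusted p = 0.000491). In the Notch list Notch1 (-1.12 ± 0.22) and Hes6 (-1.68 ± 0.24) fell, and Hes1 (0.98 ± 0.38) rose, a call that was lost without the line 1 library of day 8 (limma adjusted p = 0.359), without the line 1 or line 3 library of day 1 (0.224 and 0.0676) and with the replicate block (0.0545). In the retinoid list Rarg (-2.64 ± 0.22) and Stra8, at 1 and 0 reads at day 8, against 141 and 106 at day 1, fell, whereas Rdh10, which makes retinaldehyde, rose (1.59 ± 0.20).

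Mesoderm, mesenchyme and matrix genes were broadly higher. In the lateral plate, limb and intermediate mesoderm list 11 of 15 rose and 2 fell (median 3.26), in the mesenchymal list 18 of 20 rose and 0 fell (median 2.80), in the fibroblast list 18 of 20 rose and 1 fell (median 4.07), and of 25 collagens 18 rose and 2 fell (median 4.14). Prrx1, a homeobox gene of limb and craniofacial mesenchyme, measured 0.187 and 0.0276 RPM at day 1, 0.773 and 0.859 RPM at day 5 and 15.3 and 10.6 RPM at day 8 (log2 change 7.47 ± 0.72, limma adjusted p = 1.46e-05 for day 8 against day 1). Smooth muscle actin (Acta2) measured 0.124 and 0.193 RPM at day 1, 6.19 and 5.98 RPM at day 5 and 59.1 and 20.1 RPM at day 8 (log2 change 7.80 ± 0.49, limma adjusted p = 1.11e-06). Both genes were highest at day 8, with line 1 above line 3. Pdgfra, a receptor of mesoderm and of primitive endoderm, measured 0.436 and 0.193 RPM at day 1, 2.27 and 18.3 RPM at day 5 and 38.6 and 14.3 RPM at day 8 (log2 change 6.34 ± 0.84, limma adjusted p = 0.000113), with line 3 ahead at day 5 and line 1 ahead at day 8.

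Other members of these lists rose in both lines. Fibronectin (Fn1) had 444 and 908 RPM at day 8, against 80.6 and 71.7 at day 1 (log2 change 3.06 ± 0.25, limma adjusted p = 5.20e-06), and Col5a1 had 64.7 and 32.8, against 2.71 and 2.54 (log2 change 4.14 ± 0.27, limma adjusted p = 1.29e-06). The integrin subunit Itga5 had 76.1 and 69.3 RPM at day 8, against 11.4 and 8.67 at day 1 (log2 change 2.87 ± 0.16, limma adjusted p = 7.45e-07), and the collagenase Mmp14 had 61.7 and 78.3, against 8.12 and 9.09 (log2 change 3.02 ± 0.18, limma adjusted p = 9.02e-07). N-cadherin (Cdh2) measured 3.11 and 2.71 RPM at day 1, 27.8 and 19 RPM at day 5 and 24.1 and 19.095 RPM at day 8. Against the trend, Wt1, a factor of intermediate mesoderm that ES cells also transcribed, fell to 0.134 and 0.289 RPM at day 8, against 4.95 and 5.50 at day 1 (log2 change -4.73 ± 0.83, limma adjusted p = 0.000714), and the cartilage collagen Col2a1 fell (-3.70 ± 0.45). Decorin (Dcn) had 3 reads at day 8, against 60 at day 1. The 12 fibroblast markers, of which 9 rose and 1 fell, summed to 291 and 85.6 RPM at day 8, against 7.93 and 4.34 RPM at day 1, and none was at 0 at day 8. Their part in the mesenchymal, fibroblast and collagen results was not tested.

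Of 13 endothelial and blood genes tested, 9 rose (69.2%) and 3 fell (23.1%), against 28.5% and 26.8% of all tested genes (median 2.21). Cdh5 had 16.3 and 26.6 RPM at day 8, against 0.0311 and 0.249 at day 1 (log2 change 7.89 ± 0.97, limma adjusted p = 6.57e-05), Runx1 had 15.5 and 11.1, against 0.187 and 0.138 (log2 change 6.35 ± 0.33, limma adjusted p = 5.38e-07), and the VEGF receptor Flt1 had 61.0 and 44.1, against 1.09 and 1.35 (log2 change 5.42 ± 0.67, limma adjusted p = 7.27e-05). Pecam1, which mouse ES cells also carry, fell to 1.44 and 0.723 RPM at day 8, against 23.6 and 21.8 at day 1 (log2 change -4.48 ± 0.59, limma adjusted p = 0.000102), and Tek fell (-3.39 ± 0.64). The embryonic globins Hbb-bh1 and Hba-x had no read at either day. Of 9 endothelial and blood markers 5 were tested, and of these 2 rose and 2 fell. The 9 summed to 19.8 and 32.5 RPM at day 8, against 29.8 and 28.2 RPM at day 1.

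Genes of the extraembryonic lineages rose together with those of mesoderm. In the extraembryonic endoderm list 16 of 19 rose and 0 fell (median 4.11). The basement membrane collagens Col4a1 and Col4a2, which parietal endoderm secretes in quantity and other cell types also make, were among them. Col4a1 measured 6.13 and 9.86 RPM at day 1, 126 and 225 RPM at day 5 and 377 and 556 RPM at day 8 (log2 change 5.88 ± 0.34, limma adjusted p = 8.28e-07 for day 8 against day 1). Col4a2 measured 4.23 and 5.61 RPM at day 1, 106 and 181 RPM at day 5 and 315 and 411 RPM at day 8 (log2 change 6.21 ± 0.29, limma adjusted p = 3.88e-07). The endoderm regulator Gata6 measured 0.156 and 0.166 RPM at day 1, 1.36 and 4.49 RPM at day 5 and 6.81 and 4.05 RPM at day 8 (log2 change 5.03 ± 0.54, limma adjusted p = 2.73e-05). In all 3 both day 8 libraries were above both day 1 libraries, as in 5302 of all 14063 tested genes. The 15 markers of extraembryonic endoderm, of which 11 rose and 0 fell, summed to 95.0 and 103 RPM at day 1, 433 and 782 RPM at day 5 and 1337 and 1716 RPM at day 8. Ttr alone among them was at 0 at day 1. Col4a1 and Col4a2 are among the 15 and, at the levels above, made up much of the day 8 sum in both lines.

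Of 9 definitive endoderm genes tested, many of which primitive endoderm also uses, 6 rose (66.7%) and 2 fell (22.2%). Among all tested genes these shares were 28.5% and 26.8%. Sox17 measured 0.124 and 0.276 RPM at day 1, 4.37 and 14.0 RPM at day 5 and 28.4 and 13.7 RPM at day 8 (log2 change 6.73 ± 1.18, limma adjusted p = 0.000708 for day 8 against day 1). Foxa2 measured 0 and 0.0552 RPM at day 1, 1.18 and 4.22 RPM at day 5 and 5.57 and 2.17 RPM at day 8 (a ratio of reads of 168, 95% exact interval 46.0 to 1401, limma adjusted p = 0.000226). The day 5 level of both was higher in line 3 than in line 1 and the day 8 level higher in line 1. With 1 library for each line and day, this difference between lines has no test. Hhex (-1.25 ± 0.34) and Trh (-1.31 ± 0.37) fell. The call of Hhex was lost without the line 1 library of day 1 (limma adjusted p = 0.108), and that of Trh without the line 1 library of day 8 (0.0769) or the line 3 library of day 1 (0.0718).

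In the trophoblast list 14 of 17 rose and 1 fell (median 2.28). Krt19 measured 3.20 and 4.34 RPM at day 1, 56.5 and 46.2 RPM at day 5 and 38.9 and 70.6 RPM at day 8 (log2 change 3.81 ± 0.27, limma adjusted p = 1.99e-06 for day 8 against day 1). The homeobox genes Rhox6 (23.8 and 57.7 RPM at day 8, against 6.44 and 6.38 at day 1, log2 change 2.53 ± 0.37, limma adjusted p = 0.000217) and Rhox9 (21.6 and 60.5, against 4.42 and 4.47, log2 change 3.02 ± 0.47, limma adjusted p = 0.000342) rose more in line 3. Ascl2, a regulator of trophoblast progenitors that is also a Wnt target, fell (-3.00 ± 0.62). The 14 trophoblast markers, of which 11 rose and 1 fell, summed to 272 and 646 RPM at day 8, against 92.9 and 94.7 RPM at day 1. Elf5, Tpbpa and Prl3b1 were at 0 at day 1 and none of the 14 was at 0 at day 8. The share of the caudal, endoderm and matrix results carried by these lineages was not tested, and Cdx2, Eomes, Gata6 and the collagens are members of more than 1 list.

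Of 26 epithelial genes 11 (42.3%) were higher and 8 (30.8%) lower, against 28.5% and 26.8% of all tested genes. Their median was 0.26, which turned negative on the deposited scale and without a filter. The desmosomal protein Dsp measured 5.48 and 4.64 RPM at day 1, 84.9 and 106 RPM at day 5 and 65.9 and 97.1 RPM at day 8 (log2 change 3.99 ± 0.35, limma adjusted p = 8.64e-06 for day 8 against day 1), and the tight junction gene Cldn3 had 16.2 and 28.5 RPM at day 8, against 1.62 and 1.77 at day 1 (log2 change 3.67 ± 0.42, limma adjusted p = 4.43e-05). The splicing regulator Esrp1 (5.53 and 3.04 RPM at day 8, against 34.0 and 34.4 at day 1, log2 change -3.06 ± 0.35, limma adjusted p = 4.14e-05) and Rab25 (-3.13 ± 0.43) fell.

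Proliferation genes were lower and several cell cycle inhibitors higher. Of 30 cell cycle genes 27 fell and 0 rose (median -1.66). Mcm5, a subunit of the replicative helicase, measured 113 and 106 RPM at day 1, 63.6 and 56.8 RPM at day 5 and 35.1 and 26.3 RPM at day 8 (log2 change -1.85 ± 0.16, limma adjusted p = 6.94e-06 for day 8 against day 1). The helicase subunits Mcm2 (-1.34 ± 0.12) and Mcm7 (-1.39 ± 0.12) and the spindle checkpoint kinase Bub1b (-2.07 ± 0.18) fell in both lines. Of 13 CDK inhibitors and D cyclins 7 rose and 0 fell. Cyclin D2 (Ccnd2) had 63.1 and 37.5 RPM at day 8, against 2.83 and 2.73 at day 1 (log2 change 4.13 ± 0.28, limma adjusted p = 1.60e-06). Cdkn2a had 29.6 and 49.3 RPM at day 8, against 4.17 and 4.17 (log2 change 3.20 ± 0.24, limma adjusted p = 3.26e-06), and its neighbour Cdkn2b had 23.1 and 34.1, against 2.43 and 2.35 (log2 change 3.56 ± 0.25, limma adjusted p = 1.83e-06). Among 22 p53 targets 12 rose and 1, Trp53 itself, fell (-1.13 ± 0.18), with a median of 0.51 that turned negative on the deposited scale. Cdkn1a (p21) had 91.1 and 184 RPM at day 8, against 23.1 and 21.1 at day 1 (log2 change 2.55 ± 0.25, limma adjusted p = 1.73e-05).

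Chromatin regulators changed in both directions. Of 16 DNA methylation genes 10 fell and 4 rose (median -0.69), and of 32 Polycomb genes 14 fell and 8 rose (median -0.38), against 26.8% lower and 28.5% higher among all tested genes. The dioxygenase Tet1 had 3.52 and 4.48 RPM at day 8, against 53.8 and 54.6 at day 1 (log2 change -3.77 ± 0.18, limma adjusted p = 4.18e-07), while its relative Tet3 had 19.5 and 16.1, against 5.26 and 6.24 (log2 change 1.63 ± 0.20, limma adjusted p = 5.87e-05). Dnmt3a (-1.53 ± 0.11) and Dnmt3l (-2.48 ± 0.23) fell with Dnmt3b. The Polycomb subunit Phc1 had 12.2 and 12.7 RPM at day 8, against 108 and 103 at day 1 (log2 change -3.08 ± 0.16, limma adjusted p = 5.38e-07), and its paralogs Phc2 (1.39 ± 0.14) and Phc3 (2.01 ± 0.27) rose. Jarid2, a partner of the PRC2 complex, fell (-2.04 ± 0.14). All 8 SMC family genes tested, Smchd1 among them, fell (median -1.21), with Smc2 at 26.8 and 18.1 RPM at day 8, against 73.1 and 72.0 at day 1.

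The timing regulator Lin28a fell to 18.5 and 10.8 RPM at day 8, against 100.3 and 99.0 at day 1 (log2 change -2.81 ± 0.24, limma adjusted p = 6.40e-06), while the let-7 targets Hmga2 (81.2 and 89.5, against 3.58 and 2.76, log2 change 4.76 ± 0.23, limma adjusted p = 4.18e-07) and Arid3a (28.1 and 28.5, against 4.64 and 5.55, log2 change 2.48 ± 0.14, limma adjusted p = 7.98e-07) rose. In the whole list of 12 there were 3 risers (25%) and 5 fallers (41.7%), against 28.5% higher and 26.8% lower among all tested genes. Of 38 imprinted genes tested 16 rose (42.1%) and 10 fell (26.3%), and the share that fell lay near that of all tested genes. Igf2, a paternally expressed growth factor, had 113 and 192 RPM at day 8, against 14.4 and 12.4 at day 1 (log2 change 3.46 ± 0.26, limma adjusted p = 3.09e-06), and Airn, the noncoding RNA of the Igf2r domain, had 12.5 and 10.8, against 1.56 and 1.24 (log2 change 3.07 ± 0.22, limma adjusted p = 2.42e-06). Meg3 (-2.29 ± 0.29) and Snrpn (-2.04 ± 0.17) fell.

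Housekeeping and metabolic genes mostly did not pass the test. Among all tested genes 28.5% were higher and 26.8% lower. Of 41 oxidative phosphorylation genes 2 rose and 4 fell, of 40 ribosomal protein genes 0 rose and 5 fell, and of 28 glycolysis and hypoxia genes 4 rose and 8 fell. Their medians were within 0.14 of 0 on the log2 scale, but the lines differed. The ribosomal protein median was -0.47 in line 1 and 0.77 in line 3, and it was -0.46 without the day 8 library of line 3, in which 10.1% of reads lay in genes. The median of the oxidative phosphorylation genes was -0.18 in line 1 and 0.26 in line 3, and that of the glycolysis and hypoxia genes -0.28 and 0.26. Among 23 cholesterol synthesis genes 13 fell and 3 rose (median -0.46), with Pmvk (-1.72 ± 0.19) and Lss (-1.43 ± 0.28) among the fallers. Of 20 Atf4 and stress genes 6 rose (30%) and 7 fell (35%), not far from the shares over all tested genes. Slc7a5 (-1.50 ± 0.12) was lower and Atf3 (2.74 ± 0.34) higher.

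Across all genes, the 10 largest increases by the rule for named genes were Pitx1, S100g, Ctsh, Ctsj, Bmp2, Aqp8, Ano1, Fgd3, Tnc and Prl2a1. Pitx1, a homeobox gene of hindlimb and pituitary, had 1557 and 213 reads at day 8, against 1 and 2 at day 1 (a ratio of reads of 1098, 95% exact interval 375 to 5329, limma adjusted p = 1.69e-05). It lies on chromosome 13 at 55825054 to 55836192 of mm10, and 10.3% of its exon bases overlap another gene. The calcium-binding S100g had 850 and 182 reads at day 8, against 2 and 1 at day 1 (a ratio of reads of 640.1, 95% exact interval 218 to 3109, limma adjusted p = 0.000487). The lysosomal protease Ctsh had 702 and 72 reads at day 8, against 1 and 1 at day 1 (a ratio of reads of 720.1, 95% exact interval 199 to 5957, limma adjusted p = 1.36e-05). The rule took only genes whose day 8 libraries lay above their day 1 libraries, so that order holds for all 10 by selection. With voom on recovered reads Pitx1 and S100g missed the threshold (adjusted p = 0.0655 and 0.0720).

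Ctsj, a cathepsin of the rodent placenta, had 543 and 63 reads at day 8 and none at day 1 (at least 376-fold higher, limma adjusted p = 0.00102). The water channel Aqp8 had 477 and 59 reads at day 8 and none at day 1 (at least 332-fold higher, limma adjusted p = 0.00335). The chloride channel Ano1 had 319 and 88 reads at day 8, against 1 and 0 at day 1 (a ratio of reads of 757, 95% exact interval 135 to 29986, limma adjusted p = 4.93e-06), and Fgd3, an exchange factor for small GTPases, had 283 and 79, against 1 and 0 (a ratio of reads of 674, 95% exact interval 120.1 to 26679, limma adjusted p = 1.07e-05). Tenascin C (Tnc), a matrix glycoprotein, measured 1.21 and 0.0276 RPM at day 1, 0.682 and 0.808 RPM at day 5 and 68.0 and 42.1 RPM at day 8 (log2 change 8.19 ± 1.25, limma adjusted p = 0.000284 for day 8 against day 1), and was thus still low at day 5. Prl2a1, a placental member of the prolactin family, had 308 and 89 reads at day 8, against 2 and 1 at day 1 (a ratio of reads of 246, 95% exact interval 83.7 to 1199, limma adjusted p = 8.39e-05). At day 5 the 2 lines differed widely in Pitx1 (2.00 and 16.2 RPM), Ctsh (1.96 and 17.9), Aqp8 (1.09 and 12.5) and S100g (3.64 and 11.9), with line 3 the higher in each. Prolactin and cathepsin genes form families of similar sequence, so reads may be shared between copies.

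The 10 largest decreases were Spna1, Nphs1, Slc27a2, Cyp2b23, Btbd17, Kirrel2, Dusp27, Ankrd35, Lrrc2 and Fgf4. Spna1, which encodes erythroid alpha spectrin, was at 0.369 and 0 RPM at day 8, against 47.8 and 50.7 at day 1 (log2 change -7.81 ± 0.97, limma adjusted p = 7.28e-05). Nephrin (Nphs1), a slit diaphragm protein of kidney, had 1 read at day 8, against 928 at day 1 (a ratio of reads of 499, 95% exact interval 89.3 to 19719, limma adjusted p = 5.55e-06). Its relative Kirrel2 lies next to it on chromosome 7, Kirrel2 at 30447534 to 30457690 and Nphs1 at 30458315 to 30487223 of mm10, and had 1 read at day 8, against 422 at day 1 (a ratio of reads of 227, 95% exact interval 40.5 to 8979, limma adjusted p = 0.000237). Slc27a2, an acyl-CoA synthetase of very long chain fatty acids, was at 0.168 and 0.145 RPM at day 8, against 24.7 and 28.9 at day 1 (log2 change -7.42 ± 0.43, limma adjusted p = 8.27e-07). The remaining members had 0 to 31 reads per library at day 8. In each of the 10 the level at day 5 was at most 1.46 RPM in both lines, so most of the fall preceded day 5.

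The change over the course in fl/fl cells was set against that in del/del cells of the same lines, the comparison of genotypes that the series was designed for. Of 14063 genes, 3 (0.0213%) differed between genotypes in their change (limma, adjusted p under 0.05), and 2419 had an unadjusted p under 0.05. With the cell line as a replicate block, 0 passed. Wnt4 rose by 1.42 on the log2 scale in fl/fl cells and by 6.87 in del/del cells, a difference of -5.45 ± 0.63 (adjusted p = 0.027). Its level was 3.42 and 1.30 RPM at day 8, against 0.809 and 0.773 at day 1 in fl/fl cells, and 22.3 and 21.7 at day 8, against 0.179 and 0.199 at day 1 in del/del cells. The call of Wnt4 over the fl/fl course was lost without the line 1 library of day 8 (0.72, limma adjusted p = 0.141) and without the line 1 or line 3 library of day 1 (adjusted p = 0.0712 and 0.0823). Aoah, a lipase that inactivates endotoxin, fell by 3.86 in fl/fl cells and by 9.42 in del/del cells, a difference of 5.56 ± 0.65 (adjusted p = 0.027). Mmp11, a matrix metalloproteinase, did not pass in fl/fl cells (-0.46 ± 0.19) and changed by 1.67 in del/del cells, a difference of -2.12 ± 0.26 (adjusted p = 0.0316). H2afy2 (difference -2.17 ± 0.31) and Bspry (2.22 ± 0.32) came next and did not pass (adjusted p = 0.0655 and 0.0655).

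None of the 38 Hox genes tested passed in this comparison of genotypes. Their median difference was -2.50 on the log2 scale, and their summed level at day 8 was 115 and 71.8 RPM in fl/fl cells, against 351 and 423 RPM in del/del cells. Untransduced fl/fl and transduced, selected del/del cells differ in more than Smchd1, so deletion and treatment cannot be told apart.

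**Figure D5:**
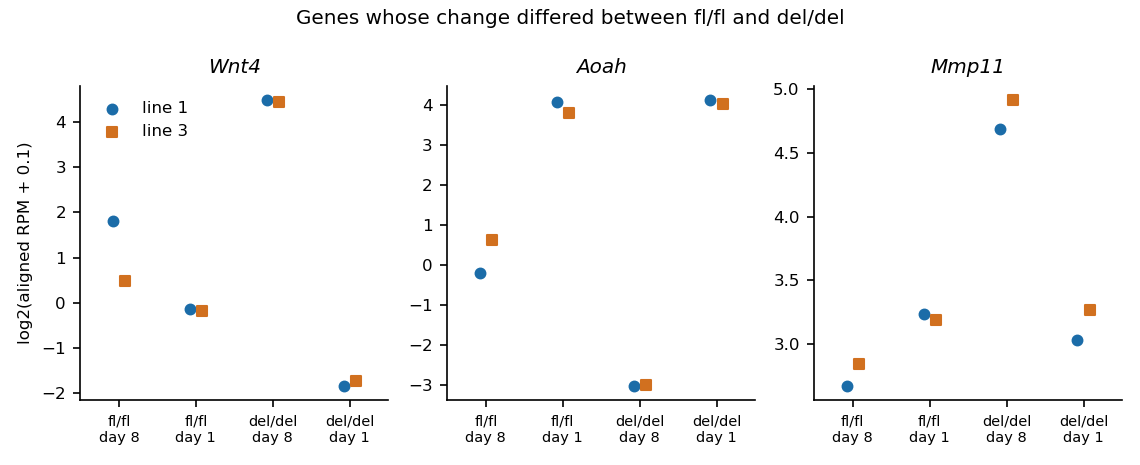
Level of Wnt4, Aoah and Mmp11 in each library of fl/fl and del/del cells at day 8 and day 1, as log2 of aligned RPM plus 0.1, with 2 libraries per group. For Wnt4 and Mmp11 the del/del day 8 libraries stand above the other groups, and for Aoah they stand below them.

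Genes called higher had a median exon length of 4674 bases, those called lower 4273 and those not called 4100, with a length found for 90.2% of names. By chromosome, the median change lay between -0.17 and 0.11 on the log2 scale, apart from 7 genes of chromosome Y at -1.45. The lines differed there, at -2.63 in line 1 and -0.61 in line 3. Line 1 had few reads of Y-linked genes in any library, so its value rests on few reads.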

How the data were processed

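RNA-seq was compared in fl/fl ES cells at day 8 and day 1 (2 libraries each), with the other 8 libraries in the same fit. Per the submitters' processing notes, the tools included edgeR, TopHat2 2.0.12 and bcl2fastq, and the build was mm10. What each did, strand use in counting and any removal of duplicates are not given in the sources used here. Per the labels, the authors deposited log2 RPM (reads per M, where M is mega) for 25965 genes. Reads were recovered from the steps of these values (whole within 0.02 reads for 100% of values; 0 reads had been entered as 0.9). Totals were 14.9 to 34.0 M reads, of which 10.1 to 27.8% lay in genes; intervals cover counting error only.

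The log2 values of each library were shifted by the median of its log ratios. The 14063 genes whose deposited log2 value exceeded 0 in 2 or more libraries entered a limma 3.58.1 fit (R 4.3.3) of 6 group means with a mean-variance trend, which was tested on simulated data. P-values were adjusted over all tested genes (Benjamini-Hochberg, 0.05). A group with 0 reads was set to a floor of 3 reads over the group, giving "at least" folds, and 1 to 3 reads gave a ratio of reads with a 95% exact interval. Deposited gene names were matched to GENCODE M21 for exons and to RefSeq for promoters.

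The comparison and the 47 lists were chosen with earlier results of these data known. Named genes were the 10 largest increases and decreases with both days apart and at least 20 reads per library of the higher group (predicted, duplicated and small RNA genes left out), any member of the Hox, naive pluripotency, caudal and paraxial lists, 4 members of other lists with the smallest p plus up to 2 in the opposite direction, the 5 smallest p for the genotype difference, and Smchd1; some genes that the rule names are not reported here. Replicate numbers pair the samples because they name the same cell line; deviations of same-line libraries correlated at -0.15 to 0.24. Replicates differed by more than sampling noise (chi-square per gene 2.80 to 19.0). Alternatives covered scale, pseudocount, filters, samples fitted, block, weights, depth, read density and single libraries or lines.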

Additional observations from a re-analysis of the deposited data

Results flagged for a closer look

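For 3 genes the change from day 1 to day 8 differed between fl/fl and del/del cells by limma's test of the difference itself. Wnt4 rose less in fl/fl cells (difference -5.45, fl/fl minus del/del), Aoah fell less (5.56), and Mmp11 changed by -2.12 relative to del/del cells. With the cell line as a replicate block, 0 genes passed this test. The count without single libraries ran up to 2268, which was reached without the line 1 library of fl/fl day 8. All 4 libraries of fl/fl and del/del day 8 come from the same 2 lines as those of day 1.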

How the results depend on the processing

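Counts of genes called over the course stayed within 1.5 times of 4008 higher and 3775 lower, except on the deposited scale (1364 higher, 6055 lower), whose shift of the median gene is given above, and with line 1 only (2337 lower), where each fl/fl group had 1 library. Without single libraries they ran from 3172 to 4081 higher and from 2585 to 4003 lower. The replicate block gave 3924 higher and 3711 lower. Of the genes called higher and lower, 72.4% and 59.0% were also called with line 1 only, 76.5% and 72.9% with line 3 only and 85.8% and 83.8% with all libraries thinned to equal depth. The count for the difference between genotypes moved more: it was 11 with quantile normalization, 19 with only the compared groups, 0 with the replicate block, 112 with array weights, 1 with voom on recovered reads, 811 with line 3 only and from 0 to 2268 without single libraries; the cause was not tested. A fit with 1 library in a group assumes that this library varies like the other groups.

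Of 198 called genes named here, 155 kept call and direction in every setting in which they were tested, and the replicate block ended the calls of Fst, Hes1 and Lef1 alone. Calls of 18 of the named genes were lost without 1 library or another. Without line 1 of day 8 these were Dcn, Fst, Hes1, Hoxa6, Hoxc12, Klf4, Nr5a2, Trh and Wnt4 (adjusted p 0.0534 to 0.359). Without line 3 of day 8 they were Bst2, Hoxc12, Lef1, Lefty2, Lfng, Meis1, Nr5a2, Sall3 and Tbx6 (0.0580 to 0.331). Without line 1 of day 1 they were 13 (0.0712 to 0.224), with Hhex added to genes already named, and without line 3 of day 1 they were 14 (0.0554 to 0.180), with Pbx2 added. Leaving out 1 library moved the fold of 46 called genes by more than 1.5 times. Under voom, Pitx1, S100g, Sall3, Lef1, Hoxc5 and Tbx6 did not pass.

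Direction turned for Pbx2 (-0.36) and Bst2 (-0.25) on the deposited scale and for 4 genes that had not passed. Cdx4 was at -0.61 on the deposited scale, -0.57 with line 3 only and from -0.17 to 0.81 without single libraries. Dppa5a was at 0.22 with line 3 only and from -0.89 to 0.14 without single libraries. Fgf8 was at 0.34 with 2 reads added, 0.077 with thinned reads, 0.65 with line 3 only and from -1.09 to 0.86 without single libraries. Hes7 was at -0.32 on the deposited scale, -0.15 with quantile normalization, -0.35 with line 3 only and from -0.14 to 1.37 without single libraries. Of 47 list medians, 11 changed sign under at least 1 setting, and 7 when the deposited scale was left out (paraxial mesoderm, epithelial, FGF, Hedgehog, glycolysis, oxidative phosphorylation and ribosomal proteins). The promoter CpG check was void, since 68.3% of names had a promoter. The day 8 library of line 3, at 1.51 M gene reads, limits what can be seen in genes at low levels.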

Other observations

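The following genes were chosen after their values were seen. They are genes induced by interferon, and how many of all such genes moved was not counted. The isopeptidase Usp18 had 152 and 43 reads at day 8, against 1 and 0 at day 1 (a ratio of reads of 363, 95% exact interval 64.4 to 14404, limma adjusted p = 1.72e-06), and the RNA sensor Ifih1 had 124 and 38, against 0 and 1 (a ratio of reads of 301, 95% exact interval 53.3 to 11979, limma adjusted p = 1.55e-05). The transcription factor Irf7 measured 0.0933 and 0.193 RPM at day 1, 1.05 and 1.09 RPM at day 5 and 4.06 and 3.76 RPM at day 8 (log2 change 4.86 ± 0.48, limma adjusted p = 1.67e-05 for day 8 against day 1). Oasl2 had 8.25 and 9.11 RPM at day 8, against 0.529 and 0.442 at day 1 (log2 change 4.16 ± 0.56, limma adjusted p = 0.000119), and Irf9 had 10.1 and 7.23, against 1.77 and 1.27 (log2 change 2.51 ± 0.35, limma adjusted p = 0.000151). Rsad2, Isg15, Oas1a, Irf2 and Bst2 were also called higher (Bst2 stood at -0.25 on the deposited scale). The membrane proteins Ifitm3 (-1.17 ± 0.17) and Ifitm1 (-2.41 ± 0.50) ran the other way.

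Prolactin family genes, which are made by the rodent placenta and pituitary, and cathepsins were looked at as families for the same reason. Of 25 prolactin genes 23 had no read at day 1, when the family summed to 3 and 1 reads. The summed level was 0.0933 and 0.0276 RPM at day 1, 7.05 and 4.90 RPM at day 5 and 51.8 and 24.4 RPM at day 8. With so few reads at day 1, members entered the test through libraries in which they were present, so the direction of the calls was largely fixed in advance. The 4 that could be tested were called higher, against 28.5% of all tested genes. Among them Prl2c5 had 199 and 23 reads at day 8 and none at day 1 (at least 138-fold higher, limma adjusted p = 0.000384), and Prl8a9 had 101 and 28 and none (at least 80.0-fold higher, limma adjusted p = 0.000138). Of 11 cathepsins tested 10 were called higher and 0 lower, against 28.5% and 26.8% of all tested genes. These 10 include Ctsh and Ctsj, already among the largest increases. Of 18 cathepsins measured, 6 had no read at day 1, so the count gives no support of its own. Lysosomal Ctsb had 113 and 249 RPM at day 8, against 24.7 and 24.5 at day 1 (log2 change 2.77 ± 0.28, limma adjusted p = 1.88e-05), and Ctsl had 88.4 and 234, against 25.0 and 25.8 (log2 change 2.50 ± 0.33, limma adjusted p = 0.000114). In both the day 8 level was higher in line 3 than in line 1.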
